A study of Mus musculus with 13 samples.

Results

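ATAC-seq, in which the Tn5 transposase inserts sequencing adapters into open chromatin, was applied to tissue of E12.5 mouse embryos, from 50000 cells for each library. The regions described here are gene desert regions, that is, accessible regions more than 500 kb from every protein-coding transcript start of GENCODE M21 on the mm10 build. Peaks were called in each library separately, and peaks of the 12 libraries on chr1-19 (chr2 below 75 Mb only) were merged where they shared at least 1 bp, which gave 245978 regions. Of these, 19010 (7.73%) were desert regions, and they lay in 304 of 329 deserts, a desert being an unbroken stretch in which every base is more than 500 kb from a coding start. A further 179544 regions lay 10 to 500 kb from the nearest coding start and are called other distal regions here, while 47424 lay within 10 kb.

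The libraries came from forebrain (FB) and from the distal (DFL) and the proximal (PFL) part of the forelimb, 3 tissues, of wild-type (wt) embryos and of embryos homozygous for allele 542, all on a B6CBAF1 background. Allele 542 carries the distal limb enhancer II1 with an HBB promoter and a LacZ reporter, inserted into the domain telomeric to the HoxD gene cluster (T-DOM). Each of the 6 groups had 2 replicates, and each replicate was a pool of tissue from 3 to 5 embryos, so that p-values measure the spread between pools. A further wt DFL library, produced earlier, was kept out of all groups. The wt libraries were mapped to mm10 and the 542 libraries to a genome rebuilt with the insertion, so that genotype and mapping genome cannot be told apart.

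Gene deserts are long intervals without coding genes. Many flank developmental regulators or genes for neuronal adhesion molecules, and some are known to carry enhancers that act on a gene at their edge over very long distances, as for Sox9. Open chromatin away from promoters often marks enhancers or sites of the architectural protein CTCF, and enhancers are as a rule open in fewer tissues than promoters. An accessible region is not by itself an enhancer, and the coding gene nearest to it need not be its target.

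The following windows of 200 bp are centred on the strongest summit of a desert region and were read from the plus strand of GRCm38 (mm10). The first 5 are the strongest desert regions of 5 calling patterns, which are defined with their counts further on. The last 4 were chosen after the motif shares were seen, as the strongest of the windows considered that hold a given motif. They are shown because the shares of those motifs differed between calling patterns. Considered were 516 of the 543 FB, 59 of 62 DFL, 52 of 53 PFL and 28 of 29 all-12 windows with the motif. Capitals mark every match to the motifs searched, on either strand.
FB, chr15:24567082-24567281, between Cdh18 and Basp1: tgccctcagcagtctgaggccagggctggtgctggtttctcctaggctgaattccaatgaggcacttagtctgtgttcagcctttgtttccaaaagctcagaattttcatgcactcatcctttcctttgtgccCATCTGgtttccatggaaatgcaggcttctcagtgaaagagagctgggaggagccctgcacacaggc
Limb, chr13:5202848-5203047, between Akr1e1 and Klf6: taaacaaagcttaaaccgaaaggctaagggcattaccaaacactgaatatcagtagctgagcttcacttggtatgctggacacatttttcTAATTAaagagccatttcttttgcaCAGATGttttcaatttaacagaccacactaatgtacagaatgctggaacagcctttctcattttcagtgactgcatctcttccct
DFL, chr3:139958200-139958399, between Stpg2 and Pdha2: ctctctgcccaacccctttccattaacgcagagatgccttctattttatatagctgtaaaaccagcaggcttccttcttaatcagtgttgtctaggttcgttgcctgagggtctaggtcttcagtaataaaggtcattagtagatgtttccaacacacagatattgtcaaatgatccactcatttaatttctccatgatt
PFL, chr12:6449688-6449887, between Klhl29 and Apob: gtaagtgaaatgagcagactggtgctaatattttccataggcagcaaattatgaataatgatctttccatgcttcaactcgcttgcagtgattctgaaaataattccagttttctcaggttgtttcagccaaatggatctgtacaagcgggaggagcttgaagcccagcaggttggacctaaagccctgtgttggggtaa
All 12 libraries, chr16:40968178-40968377, intron of Lsamp: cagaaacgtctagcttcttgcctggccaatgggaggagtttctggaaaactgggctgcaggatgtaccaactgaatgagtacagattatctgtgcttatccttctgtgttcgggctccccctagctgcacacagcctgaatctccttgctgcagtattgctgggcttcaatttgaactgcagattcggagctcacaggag
FB with a homeodomain core, chr8:100515985-100516184, between Cdh8 and Cdh11: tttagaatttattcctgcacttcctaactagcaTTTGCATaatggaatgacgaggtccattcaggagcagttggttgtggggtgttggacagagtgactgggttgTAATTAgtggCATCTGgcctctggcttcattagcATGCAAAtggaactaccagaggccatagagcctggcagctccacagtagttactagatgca
DFL with a HOX13 core, chr12:68646290-68646489, between Mdga2 and Rps29: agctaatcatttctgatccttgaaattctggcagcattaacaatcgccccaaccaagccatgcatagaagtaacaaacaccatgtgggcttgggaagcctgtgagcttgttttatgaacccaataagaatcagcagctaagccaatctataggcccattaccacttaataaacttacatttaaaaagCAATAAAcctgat
PFL with a palindromic E-box, chr12:93744581-93744780, between Sel1l and Flrt2: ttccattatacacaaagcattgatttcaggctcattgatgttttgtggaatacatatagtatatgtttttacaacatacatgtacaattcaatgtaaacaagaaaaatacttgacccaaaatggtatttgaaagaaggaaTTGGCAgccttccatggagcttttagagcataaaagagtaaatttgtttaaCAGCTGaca
All 12 libraries with a CTCF core, chr4:67477493-67477692, between Tlr4 and Brinp1: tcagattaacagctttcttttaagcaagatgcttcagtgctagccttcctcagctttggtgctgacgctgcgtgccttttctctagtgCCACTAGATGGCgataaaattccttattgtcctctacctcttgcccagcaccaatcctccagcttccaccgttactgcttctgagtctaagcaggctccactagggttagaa

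The libraries held 78945 to 109961 called regions. No read totals were used, and totals of tags (read ends) estimated from the deposited fold and p-value were, in units of 1e6 tags, 51.4 to 70.7 for FB and 37.5 to 54.5 for limb libraries, 44.1 to 70.7 for wt and 37.5 to 64.5 for 542. A median of 21 to 31 tags lay under the summit of a desert region within a library. Promoters separated the tissues only in part, since the starts of all 8 forebrain marker genes were open in all 12 libraries. Of the 6 limb mesenchyme genes, the promoter of Tbx5, which specifies the forelimb, was called in 0 of 4 FB libraries, 3 of 4 DFL libraries and 3 of 4 PFL libraries, while the other 5 were called in all 12 libraries. The median fold percentile over the called promoters of that list was 70.1 in FB, 64.3 in DFL and 53.7 in PFL. The FB value leaves out Tbx5, which was weak in limb (29.6 in DFL and 21.3 in PFL). Twist1 was lowest in FB (54.2, against 88.6 in DFL and 87.8 in PFL), while Prrx1, Msx1, Meis1 and Shox2 were highest there. The forebrain list had 74.2 in FB, 59.0 in DFL and 70.1 in PFL, although Lhx2, Neurog2 and Eomes were lowest in FB. Of the 2 distal limb genes, Hoxa13 was called in 4 of 4 DFL, 4 of 4 PFL and 1 of 4 FB libraries, and Hoxd13 in all 12, with a median percentile of 85 in DFL, 49.0 in PFL and 37.2 in FB. Of cells that a sample could also hold, the ectodermal genes Trp63 and Krt5 had 0 of 8 possible calls in FB, 3 in DFL and 4 in PFL. The muscle genes had 4 of 8 in FB, 6 in DFL and 8 in PFL, the endothelial genes Cdh5 and Kdr had 5, 4 and 5, and the pan-leukocyte gene Ptprc had none. The part of such cells in the results was not tested. Desert regions called in a single library were most numerous in 542 DFL replicate 1 (1109), against 335 to 733 in the other limb and 479 to 1040 in the FB libraries, which is within the spread that Dixon's test allows.

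Desert regions were a larger part of the accessible regions in forebrain than in limb. They made up 6.5% and 7.14% of called regions in wt FB and 6.65% and 6.01% in 542 FB. In DFL they made up 5.16% and 4.91% in wt and 6.03% and 5.33% in 542. In PFL they made up 4.28% and 4.32% in wt and 4.59% and 4.80% in 542. The PFL libraries were the lowest of all, and a single limb library, 542 DFL replicate 1, lay just above the lowest FB library.

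The mean share was 6.57% ± 0.467 (SD, n = 4) in FB and 4.93% ± 0.580 (SD, n = 8) in limb, a difference of 1.65 percentage points (two-sided exact permutation test, p = 0.00404, Benjamini-Hochberg adjusted over 8 tests 0.0162). The difference was 2.15 points within wt (exact permutation p = 0.0667, the smallest that 2 against 4 libraries allow) and 1.14 points within 542 (exact permutation p = 0.2). When every library was cut to its 50000 strongest regions, the difference was 0.966 points (exact permutation p = 0.00202), with every FB library above every limb library. FB libraries were also deeper on average, with some overlap as given above, and the part of depth in the difference was not tested beyond lists of equal length. Against each limb domain alone, the share in FB was 1.22 points higher than in DFL (exact permutation p = 0.0571) and 2.08 points higher than in PFL (exact permutation p = 0.0286, the smallest possible for 4 against 4).

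Within the limb, the share was higher in DFL (5.36% ± 0.480, SD, n = 4) than in PFL (4.50% ± 0.245, SD, n = 4), with no overlap and a difference of 0.861 points (exact permutation p = 0.0286, adjusted 0.0417). The difference was 0.736 points within wt and 0.985 points within 542. It no longer passed the test without 542 DFL replicate 1 (0.637 points) or without any 1 of wt PFL replicate 1 (0.788), wt PFL replicate 2 (0.800), 542 PFL replicate 1 (0.892) and 542 PFL replicate 2 (0.961), each with an exact permutation p of 0.0571. Among the 50000 strongest regions it was 0.431 points (exact permutation p = 0.171). The earlier wt DFL library, which is in no group, had a share of 4.03%, below all 4 PFL libraries. With it included the difference was 0.594 points (exact permutation p = 0.159). The earlier library also had a higher estimated tag total than any of the 12 libraries, and the part of depth in its share was not tested.

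**Figure D1:**
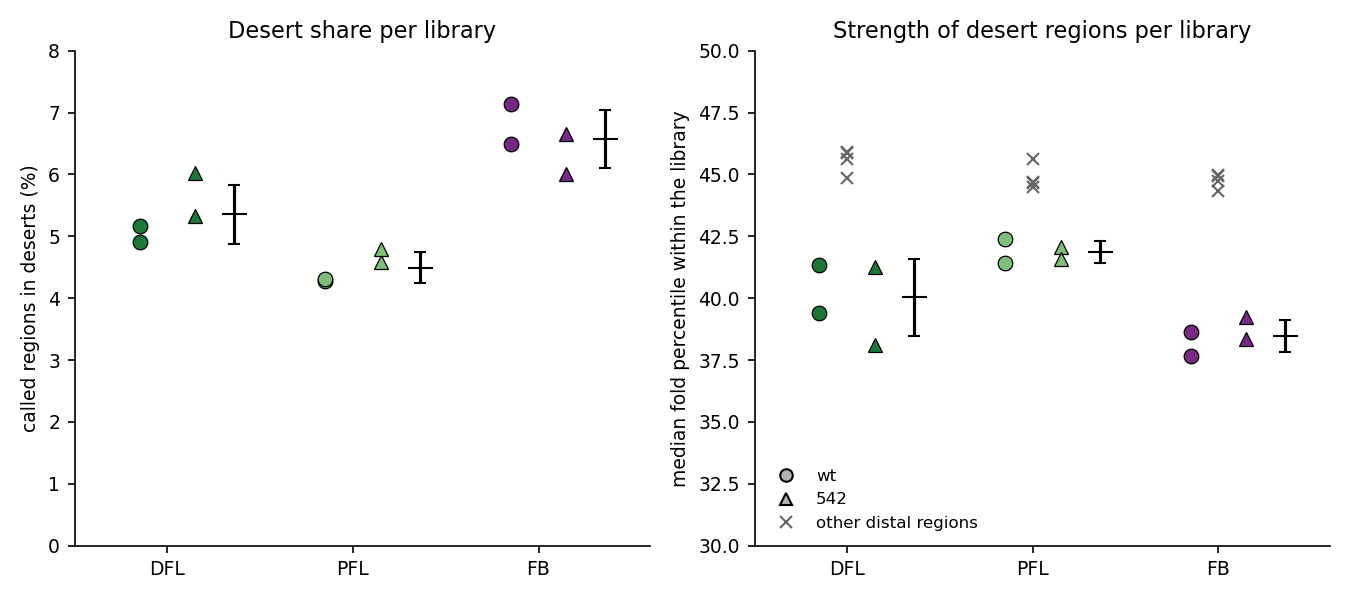
Left, percentage of the called regions of each library that lie in deserts, and right, median fold percentile of those desert regions within the library, for DFL, PFL and FB. Circles are wt and triangles 542 libraries, bars give the mean ± SD of the 4 libraries of a tissue, and crosses the median of other distal regions. The 4 FB libraries lie between 6.01% and 7.14% and the 4 PFL libraries between 4.28% and 4.80%, and the desert medians lie below the crosses in all 12 libraries.

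Desert regions were weaker than other distal regions of the same library. The fold of a region is its tag pileup over the local background, and its percentile is its rank among all regions of that library. The median percentile of desert regions was 39.4 and 41.4 in wt DFL, 42.4 and 41.4 in wt PFL, and 38.6 and 37.7 in wt FB. The 542 libraries had 38.4 and 39.2 in FB, 38.1 and 41.3 in DFL, and 42.1 with 41.6 in PFL. The desert median lay below that of other distal regions, 44.4 to 45.9, in all 12 libraries, with a mean difference of -4.92 (exact sign-flip permutation p = 0.000488, the smallest possible, adjusted 0.00391). With a −log10 q of at least 10 the difference was -0.962 (exact sign-flip permutation p = 0.0254). It did not pass the test in lists cut to a set number of the strongest regions. Among the 50000 strongest regions the difference was -0.661 (exact permutation p = 0.083) and among the 20000 strongest the desert median was 1.02 higher (exact permutation p = 0.0552).

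The median percentile was lower in FB than in limb, with a difference of -2.47 (exact permutation p = 0.0222, adjusted 0.0417), -2.98 within wt and -1.97 within 542. In lists of 50000 regions the difference was -0.0644 (exact permutation p = 0.939). DFL was lower than PFL, with a difference of -1.84 (exact permutation p = 0.0286, adjusted 0.0417), -1.53 within wt and -2.14 within 542. This last difference was no longer called without any 1 of the 4 PFL libraries, with values of -1.66 without wt PFL replicate 1, -1.99 without wt PFL replicate 2, -1.77 without 542 PFL replicate 1 and -1.93 without 542 PFL replicate 2 (exact permutation p from 0.114 to 0.143).

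A desert region was less often recovered in both replicates. Of the regions called in at least 1 replicate of a group, 52.9% of desert regions were called in both in wt DFL, 56.1% in wt PFL, 56.8% in wt FB, 46.2% in 542 DFL, 53.2% in 542 PFL and 55.8% in 542 FB. The corresponding value for other distal regions was higher in all 6 groups, and the mean difference was -6.94 percentage points (53.5% against 60.4%, exact sign-flip permutation p = 0.0312, the smallest possible, adjusted 0.0417). It was -3.14 points among the 50000 strongest regions, -2.76 with a −log10 q of at least 10 and -3.33 among the 20000 strongest, where it no longer passed the test (exact permutation p = 0.0625). A desert region was called in 3.16 libraries on average, against 4.02 for other distal regions, and 40.4% of desert regions were called in a single library against 31.9%.

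The regions called in every library of a tissue and in none of the others show where forebrain and limb part. A region called in all 4 FB and no limb library is named FB-only, and limb-only, DFL-only and PFL-only regions are defined in the same way. FB-only regions numbered 1821 (9.58% of desert regions, against 6.4% of all 245978 regions), and limb-only regions, called in all 8 limb and no FB library, 564 (2.97% against 3.82%). DFL-only regions numbered 326 (1.71% against 1.39%) and PFL-only regions 230 (1.21% against 1.22%), so that the limb domains stood near the values of all regions. Regions called in all 12 libraries numbered 420, or 2.21% of desert regions against 10.7% of all regions. Among the 50000 strongest regions of each library, 985 desert regions were FB-only and 288 limb-only. The shares over all regions of these lists were not computed, so these counts cannot be set against them. FB libraries were deeper on average and FB-only needs fewer libraries than limb-only, and the part of either in these counts was not tested.

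A library outside the 12 allowed a check of these patterns. In the earlier wt DFL library, 83.4% of the 326 DFL-only desert regions were called (272), against 13.9% of PFL-only (32) and 1.04% of FB-only desert regions (19). It also called 96.8% of limb-only desert regions and 98.1% of those called in all 12. The same values over all regions of these patterns were not computed, so nothing particular to deserts can be read from them. The estimated tag total of the earlier library was 78.0 in the units given above, higher than in any of the 12 (at most 70.7). The part of depth in these values was not tested.

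Within a pattern, the strength of desert regions lay close to that of other distal regions, given here as a description. The median of the mean percentile was 51.8 for FB-only desert regions and 50.8 for FB-only other distal regions, 63.9 and 62.6 for limb-only, 47.0 and 44.0 for DFL-only, and 45.9 and 42.6 for PFL-only. For regions called in all 12 libraries it was 70.5 in deserts and 72.1 in other distal regions.

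The 3 strongest FB-only desert regions were intergenic. The first, chr15:24566929-24567577, lay 846 kb from Basp1, which encodes a growth cone protein, and had fold percentiles of 97.3 and 97.3 in wt and 98.4 and 98.1 in 542 FB libraries. The second, chr14:89142871-89143616, lay 671 kb from the protocadherin gene Pcdh20 (96.8 ± 1.06, SD, n = 4). The third, chr8:100515684-100516556, lay 1099 kb from the cadherin gene Cdh8 (95.5 ± 2.23, SD, n = 4). All 3 were in the top 10% of every FB library and uncalled in all 8 limb libraries.

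The strongest limb-only desert region, chr13:5202215-5203943, was intergenic between Akr1e1 and the zinc finger gene Klf6, 593 kb from the Akr1e1 start. Its percentile was 94.3 and 93.4 in wt DFL, 94.9 and 92.4 in wt PFL, 96.9 and 97.3 in 542 DFL, and 94.2 and 94.2 in 542 PFL. The next, chr5:47322328-47323551, lay 660 kb from Slit2, which encodes a guidance ligand (94.3 ± 1.22, SD, n = 8), and the third, chr3:23408955-23410187, lay 1206 kb from Tbl1xr1, a corepressor subunit gene (93.9 ± 2.12, SD, n = 8). These were among the strongest regions of limb at any distance, and the DFL and PFL values overlapped in each.

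Regions of a single limb domain were weaker and more variable. The strongest DFL-only region, chr3:139957813-139958689, 752 kb from Stpg2, had percentiles of 77.9 and 89.3 in wt and 92.3 and 87.8 in 542 DFL. It was followed by chr5:55859012-55859809, 1754 kb from the calcium sensor gene Stim2 (85 ± 11.3, SD, n = 4), and chr12:68645881-68646728, 512 kb from the ribosomal protein gene Rps29 (82.0 ± 6.51, SD, n = 4). The strongest PFL-only region, chr12:6449361-6450296 between Klhl29 and Apob, had 92.9 and 89.5 in wt and 88.5 and 84.0 in 542 PFL. The others were chr4:38234471-38235246 (82.7 ± 3.80, SD, n = 4) and chr12:94482414-94483064, 1209 kb from the adhesion gene Flrt2 (79.7 ± 5.58, SD, n = 4). All 6 were intergenic.

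The strongest desert region called in all 12 libraries, chr16:40968027-40968827, lay in an intron of Lsamp, a long gene for a neuronal adhesion protein, 564 kb from its nearest coding start, with percentiles from 95.7 to 99.6. The other 2, chr12:23189019-23190111 and chr12:19387531-19388482, lay over exons of non-coding genes, the pseudogene Gm47385 and the lincRNA Gm5784. Their windows had a GC content of 75% and 74%, against a mean of 42.3% over all desert windows.

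**Figure D2:**
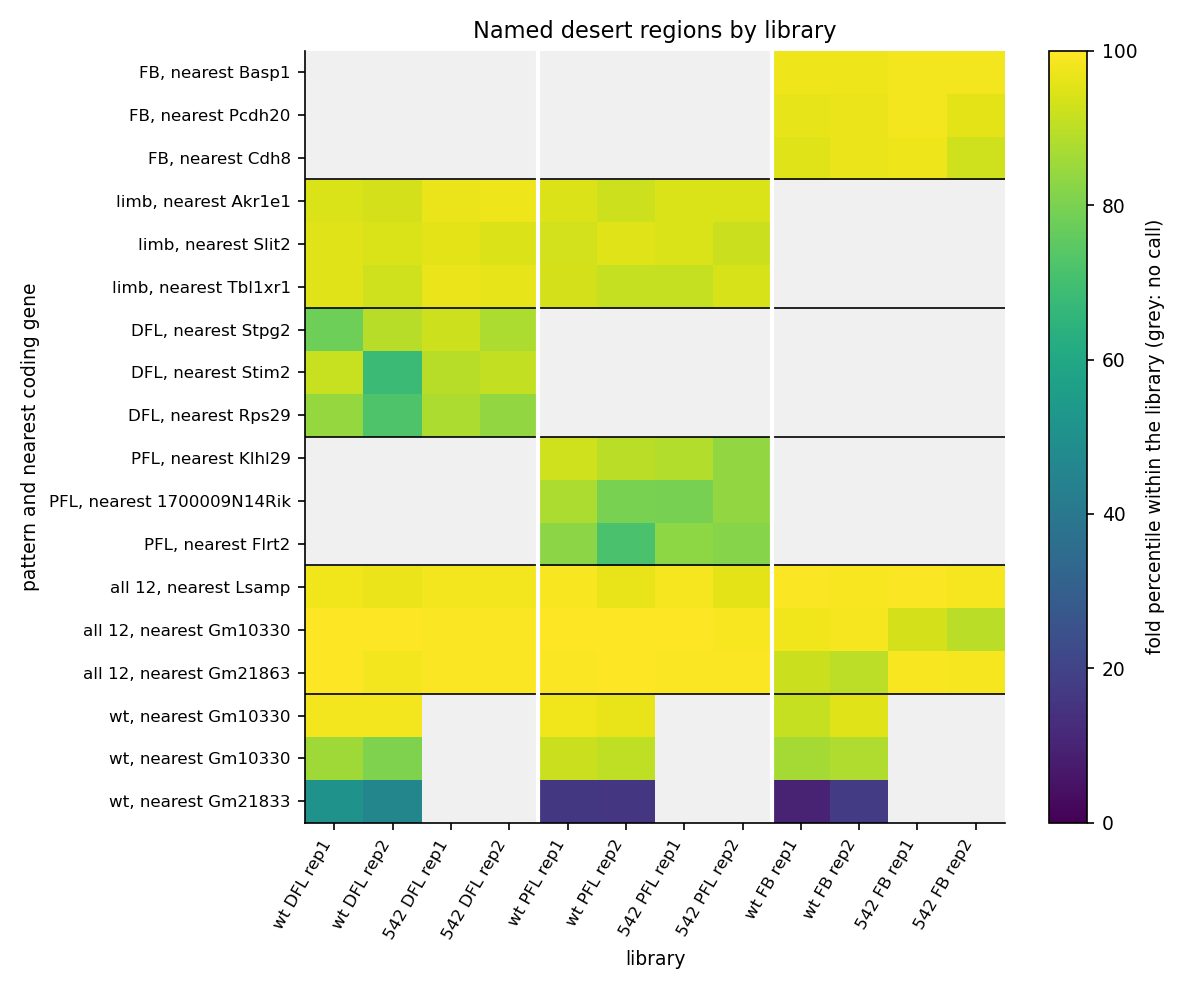
Fold percentile within the library (colour, 0 to 100) of the named desert regions (rows, with pattern and nearest coding gene) in the 12 libraries (columns, by tissue). Grey is no call. FB-only and limb-only regions reach above 90 in every library of their pattern, DFL-only and PFL-only regions range from 68.1 to 92.9, and the third wt-only region stays between 9.41 and 50.9.

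The share of FB-only regions went up with distance from coding starts. It was 0.943% of regions over a start, 5.82% at 10-50 kb, 7.40% at 100-250 kb, 8.42% at 250-500 kb, 9.25% at 500-1000 kb and 10.5% beyond 1000 kb. The share of limb-only regions was highest at 100-250 kb, 4.73%, and was 3.12% at 500-1000 kb and 2.55% beyond. The share called in all 12 libraries went from 81.1% over a start to 3.62% at 250-500 kb, 2.5% at 500-1000 kb and 1.42% beyond. DFL-only and PFL-only shares lay between 1.2% and 1.81% in deserts and between 1.25% and 1.71% in the bins from 1 to 500 kb for DFL, and between 1.12% and 1.38% for PFL. These are descriptions over regions of the same 12 libraries and carry no test.

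**Figure D3:**
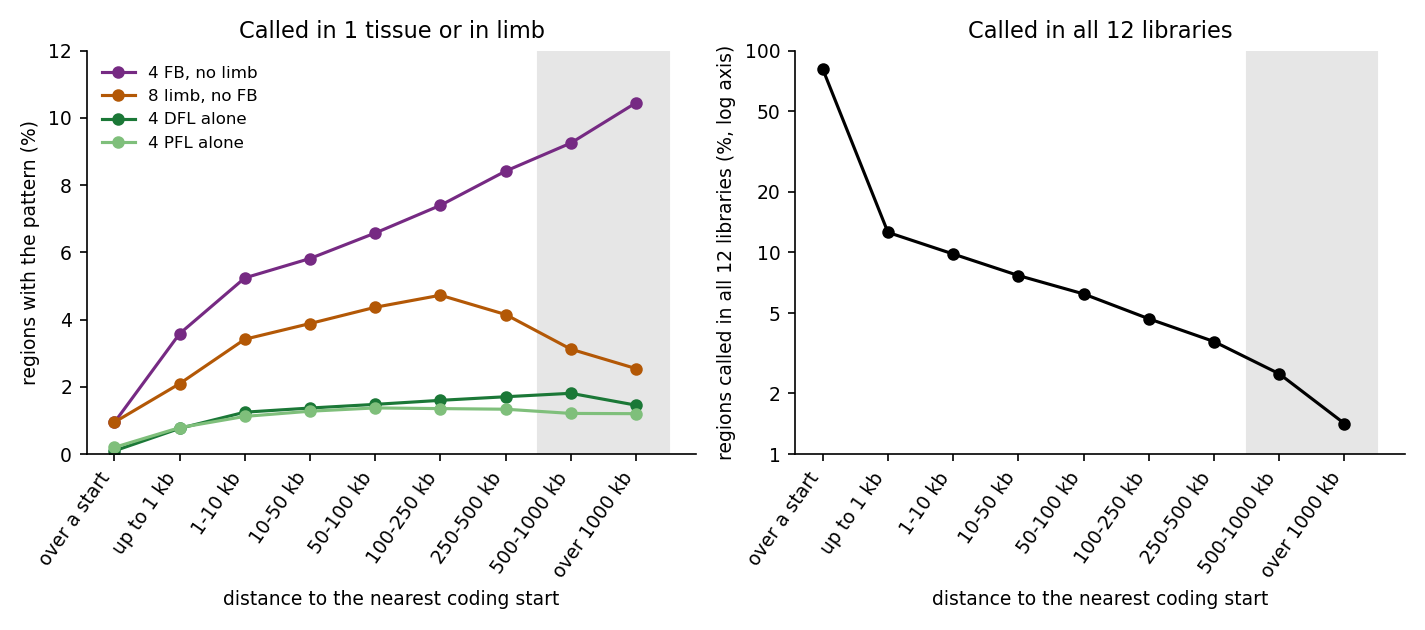
Percentage of merged regions with each calling pattern (y axis, log axis on the right) by distance to the nearest protein-coding start (x axis), with deserts shaded. FB-only regions reach 10.5% beyond 1000 kb, limb-only regions peak at 4.73% at 100-250 kb, and regions called in all 12 libraries go from 81.1% over a start to 1.42%.

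The label gene desert held for most of these regions. Of 19010, 16128 (84.8%) lay outside every annotated gene, 1415 (7.44%) in the body of a long non-coding gene, and 1349 (7.10%) in the body of a protein-coding gene. The protein-coding transcript starts of such a gene were all more than 500 kb away, while starts of its other transcripts were not considered. Only 39 touched an exon of a protein-coding gene. The host genes were long genes, led by Ptprd (127 regions), a receptor phosphatase gene, Gpc5 (122), a glypican gene, and Cntnap2 (90), Lsamp (88) and Csmd1 (83). FB-only regions made up 11.7% of those in coding gene bodies and 9.42% of the others. A start of a long non-coding transcript lay within 1 kb of 194 desert regions (1.02%, against 3.09% of all regions). Of these 194, 9.79% were called in all 12 libraries, against 2.13% of the other desert regions. The calling patterns of all regions were not split in this way, nor by coding gene body.

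Desert windows of 200 bp were poorer in GC and CpG than those of other distal regions. Mean GC was 42.3% against 46.7%, 31.3% of desert windows held no CpG against 15.8%, and the mean repeat-masked part was 15.5% against 11.1%. The masked part differed with calling. Windows mostly masked made up 15.2% of desert regions called in a single library, 2.14% of FB-only, 1.77% of limb-only and 0.714% of those called in all 12. Over all distances the values were 7.98%, 1.42%, 1.22% and 0.606%, so that the order was not particular to deserts.

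The calling patterns differed in the motifs of their windows. Searched were TAATTA, the core of many homeodomain factors, CAATAAA, bound by HOX13 proteins, the E-boxes CAGATG and CAGCTG of bHLH factors, CCATTGT (SOX), ATGCAAA (part of the POU octamer), TTGGCA (NFI half-site), TGACAG (MEIS), ACATTCC (TEAD), TGANTCA (AP-1) and the CTCF core, on both strands, each counted whether or not it overlapped another. A match is a string of letters and not an occupied site.

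The homeodomain core TAATTA was in 29.8% of FB-only and 21.2% of DFL-only desert windows, in 9.57% of limb-only and in 1.74% of PFL-only windows, against 14.9% of all desert windows and 10.0% of all regions. Over all distances the same patterns had 25.9%, 16.9%, 6.28% and 2.00%, so that the order of the patterns was not particular to deserts. The FB-only window that was chosen for it and is printed above also has 2 matches of the octamer part ATGCAAA. That motif was in 12.8% of FB-only windows, against 6.22% of all desert windows and 4.90% of all regions. CCATTGT was in 6.32% of FB-only windows, against 3.81% of all desert windows and 3.13% of all regions. Over all distances, FB-only regions had 12.0% for ATGCAAA and 6.25% for CCATTGT, near the values in deserts.

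CAATAAA was in 19% of DFL-only desert windows, 11.7% of limb-only, 6.52% of PFL-only and 4.12% of FB-only windows, against 6.83% of all desert windows and 4.87% of all regions. Over all distances the same patterns had 15.9%, 8.18%, 4.40% and 3.31%. HOXA13 and HOXD13 are distal limb factors. The E-box CAGATG was in 31.3% of PFL-only and 31.0% of limb-only windows but in 12.0% of DFL-only windows, against 21.8% of all desert windows and 21.2% of all regions. These 3 patterns had 28.9%, 29.2% and 17.6% over all distances. CAGCTG was in 23.0% of PFL-only, 23.3% of all-12, 18.3% of limb-only, 15.4% of FB-only and 9.51% of DFL-only windows, against 15.3% of all desert windows and 19.1% of all regions. Over all distances it was in 35.1% of PFL-only regions, more than in deserts.

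The CTCF core was in 6.90% of desert windows called in all 12 libraries (29 of 420) and in no limb-only, DFL-only or PFL-only window, against 0.479% of all desert windows and 2.1% of all regions. Over all regions called in all 12 libraries it was in 7.56%. The desert region of this kind that is printed above, chr4:67477002-67478104 between Tlr4 and Brinp1, had percentiles from 83.9 to 97.5.

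Of the remaining motifs, TGACAG was in 22.5% of FB-only and 8.59% of DFL-only windows (17.0% of all desert windows, 16.7% of all regions). TTGGCA was in 18.4% of limb-only and 11.7% of PFL-only windows (14.8% and 13.6%). ACATTCC was in 9.13% of PFL-only and 2.09% of FB-only windows (5.40% and 5.30%). TGANTCA was in 6.19% to 8.87% of the windows of the 5 patterns (7.85% and 6.99%). Over all distances, FB-only and DFL-only regions had 23.5% and 10.2% for TGACAG. Limb-only and PFL-only regions had 13.6% and 12.3% for TTGGCA, and PFL-only and FB-only regions 8.04% and 2.65% for ACATTCC.

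**Figure D4:**
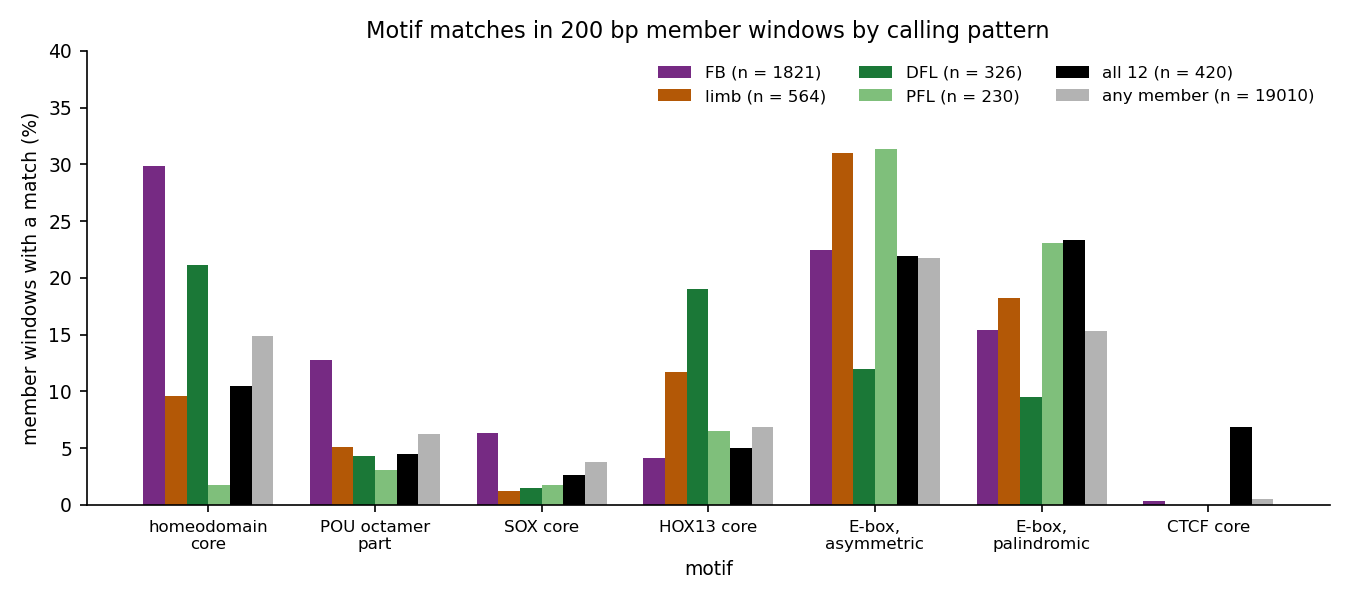
Percentage of 200 bp desert windows with at least 1 match (y axis) for 7 motifs (x axis) by calling pattern (bars, with the number of windows). The homeodomain core stands at 29.8% in FB-only and 1.74% in PFL-only windows, the HOX13 core is highest in DFL-only windows (19%), and the CTCF core reaches 6.90% in regions called in all 12 libraries.

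Deserts differed in the tissue that filled them. Across the genome, deserts held 241 of 2289 sequenced Mb (10.5%), with 78.9 desert regions per Mb against 110.8 other regions per Mb elsewhere. The 210 deserts with at least 20 desert regions each were compared by their share of the desert regions called in a library, which removes the total of that library. This share was higher in every FB than in any limb library for 41 of the 210 deserts (19.5%) and lower for 40 (19%). It was higher in every DFL than in any PFL library for 31 (14.8%) and lower for 20 (9.52%). By the number of calls instead, FB lay above for 55 and below for 10, and DFL above PFL for 58 and below for 2. The shares of a library have a fixed total, so a higher share in some deserts goes with a lower share in others. Intervals outside deserts were not compared in this way.

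The deserts with most desert regions were long. The desert between the protocadherin genes Pcdh20 and Pcdh9 (chr14:88971397-93385747) held 428 desert regions, of which 137 ± 16.6 (SD, n = 4) were called per FB and 87 to 116 per limb library. The desert between Celf4 and Pik3c3 on chr18 held 301 (103 ± 10.2 per FB and 74.5 ± 16.7 per limb library). The desert between Sel1l and Flrt2 (chr12:92349158-95192225) held 294, with numbers that overlapped between forebrain and limb (80.8 ± 10.1 per FB and 93.1 ± 14.3 per limb library), but with a share that was lower in every FB than in any limb library. The shortest deserts were given no density, such as that between Pard3b and Nrp2, with 12 desert regions in 0.064 Mb. The densest of the others with at least 10 desert regions were also short. They lay between Gja1 and Hsf2 (21 desert regions, 196 per Mb), Gpc6 and Dct (24, 190 per Mb) and Itga1 and Isl1 (35, 169 per Mb). In none of these 3 did the FB share leave the range of limb.

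Single deserts stood far to one side, and those named next were chosen after their values were seen. Between Kcnj2 and Sox9, a gene needed for cartilage formation, 78 desert regions were found. Here 18 and 16 were called in wt FB and 14 and 12 in 542 FB libraries, against 36, 29, 40 and 37 in wt and 31, 24, 24 and 24 in 542 limb libraries, so that every limb library lay above every FB library. Of the 78, 5 were FB-only and 6 limb-only, beside 9.58% and 2.97% of all desert regions. Between Ebf1 and Clint1, 2 of 28 regions were called in each FB library and 9 to 18 in limb libraries. Between Inhba, which encodes an activin subunit, and Sugct, 23 to 26 of 96 were called in FB and 34 to 49 in limb libraries. At the forebrain side, 20 to 34 of the 66 regions between Cobl and Pom121l12 were called in FB and 3 to 9 in limb libraries.

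**Figure D5:**
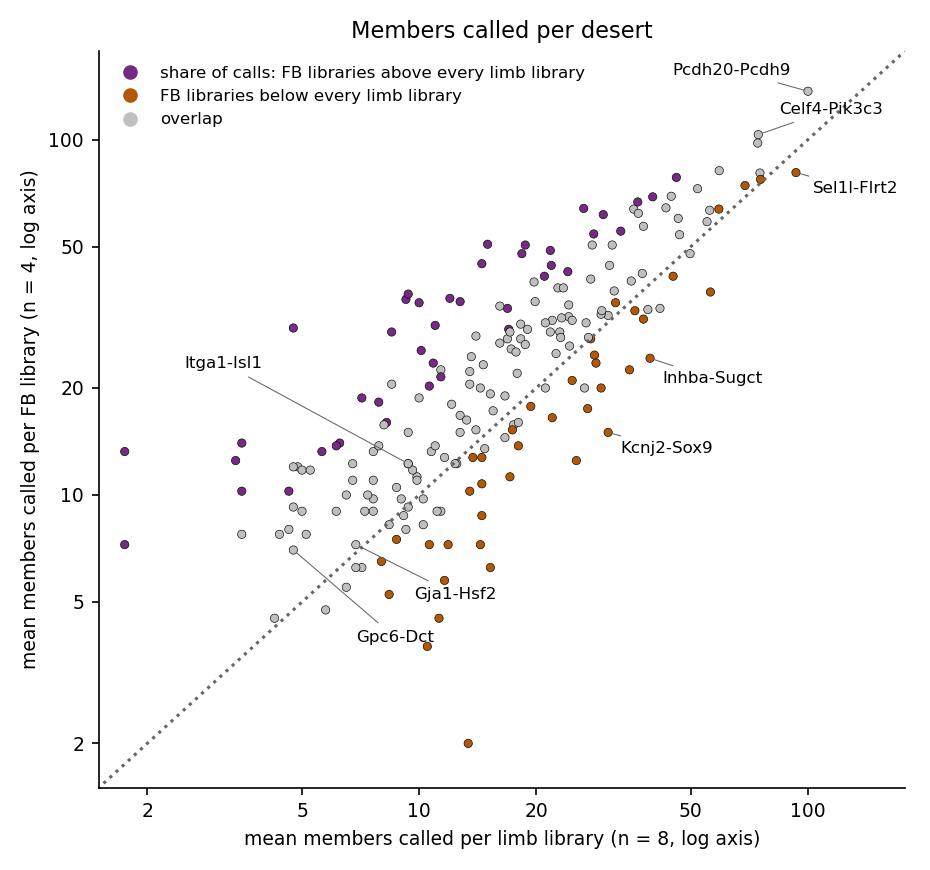
Mean number of desert regions called per FB library (y axis, n = 4, log axis) and per limb library (x axis, n = 8, log axis) in each of the 210 deserts with at least 20 desert regions, with the dotted line at equal numbers. Purple and orange points are the 41 and 40 deserts whose share of calls lies in every FB library above or below every limb library. The Kcnj2-Sox9 desert lies at 15 in FB and 30.6 in limb libraries.

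The following deserts are examples of those in which the limb domains parted. In that between Brinp3 and Pla2g4a, 45, 34, 43 and 44 of 207 regions were called in DFL and 16, 22, 15 and 19 in PFL libraries. In that between Tenm2 and Mat2b, 63 to 88 of 239 were called in DFL and 41 to 47 in PFL. The reverse was found between 1700015G11Rik and Luzp2, with 1 to 7 of 92 called in DFL and 12 to 16 in PFL, and between Bckdhb and Gm11114, with 8 or 9 of 32 in DFL and 11 to 17 in PFL. These 4 were also chosen after their values were seen.

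Many desert regions had a gene of neuronal adhesion or synapse function as nearest coding gene. Of 86 such genes with a coding start, 55 were the nearest gene of 4501 desert regions, 23.7% of them, against 5.25% of all regions. FB-only regions made up 10.5% of those 4501, beside 9.58% of all desert regions and 9.85% of all regions of the list. The leading genes were Pcdh9 (259 regions, of which 77.2 ± 9.32 were called per FB and 59.1 ± 7.99 per limb library) and Flrt2 (231 regions, 54.2 ± 5.19 per FB and 75.4 ± 12.9 per limb library). For Flrt2, which encodes a guidance and adhesion protein, the libraries overlapped (48 to 59 in FB and 52 to 94 in limb), and 14 of its regions were FB-only and 14 limb-only.

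Signalling and guidance genes were nearest to 813 desert regions (4.28% against 1.92% of all regions), with 16 of 58 genes involved. Of the 813, 11.7% were FB-only, beside 9.58% of all desert regions and 8.34% of all regions of the list. The Eph receptor gene Epha7 led with 151 regions (47.0 ± 8.87 per FB and 36 ± 6.52 per limb library), followed by the ephrin gene Efna5 with 136 (34.8 ± 5.85 and 31.6 ± 5.71). The limb values overlapped those of FB for both.

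Forebrain transcription factor genes were nearest to 563 desert regions (2.96% against 1.48% of all regions), with 17 of 55 genes involved. Of the 563, 11.7% were FB-only and 3.73% limb-only, beside 9.58% and 2.97% of all desert regions and 10.1% and 4.19% of all regions of the list. Zeb2, which acts in interneuron and neural crest development, had 140, of which 39 to 50 were called in FB and 35 to 55 in limb libraries (both means 44.8). Nr2f1, a regulator of cortical areas, had 92 (35.2 ± 2.06 per FB and 28.2 ± 6.27 per limb library). Limb transcription factor genes were nearest to 254 desert regions (1.34% against 1.61% of all regions), with 12 of 69 genes involved. Of the 254, 9.06% were FB-only and 3.54% limb-only, beside 9.58% and 2.97% of all desert regions and 6.63% and 5.42% of all regions of the list. Dach1 had 49 (18.0 ± 3.56 per FB and 18.4 ± 3.42 per limb library) and Nr4a2, which is also a dopaminergic neuron gene, 47 (19.8 ± 2.87 and 11.2 ± 3.01).

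The desert share did not differ between genotypes beyond the spread of the libraries. It was 5.57% ± 0.797 (SD, n = 6) in 542 and 5.38% ± 1.18 (SD, n = 6) in wt, a difference of 0.184 points (exact permutation test within tissue, p = 0.5, adjusted 0.571). The difference was 0.645 points in DFL, where both 542 libraries lay above both wt libraries, 0.397 in PFL, where they did so as well, and -0.491 in FB, where they overlapped. The smallest p that a single tissue allows is 0.333 by exact permutation. Among the 20000 strongest regions the difference was 0.377 points (exact permutation p = 0.0185). The median fold percentile was 40.1 in both genotypes, a difference of -0.0356 (exact permutation p = 0.926, adjusted 0.926). Of all desert regions, 27.7% were called in the mean wt and 25% in the mean 542 library, against 39.6% and 34.0% of all regions. A lower number of calls in 542 was thus not particular to deserts, and the 542 libraries had fewer tags on average.

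Regions called in all 6 libraries of a genotype and in none of the other were rare. There were 3 wt-only desert regions (0.0158%, against 0.0122% of all regions) and 0 called only in 542 (against 0.00813%). The strongest, chr12:23009490-23010768, covered exons of the lincRNA 2410018L13Rik and of the pseudogene Gm48046, with percentiles from 91.2 to 98.4 in wt. The second, chr12:22905897-22906717, covered the pseudogene Gm48042, with 80.8 to 92.0. Both lay in the desert between Ywhaq and Gm10330, where a region called in all 12 libraries is also found. The third, chr16:83420699-83421719 between Gm21833 and A730009L09Rik, was weak, with 50.9 and 45.9 in the wt DFL libraries, 16.1 and 15.8 in those of PFL, and 9.41 and 17.9 in those of FB. Both chr12 regions were high in all 3 tissues of wt and uncalled in all 3 tissues of 542, and the mapping genomes differed in the same way. The methods describe the rebuilt sequence for chr2, and an effect of the mapping genome on chr12 calls was not tested.

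The desert regions reached far from any coding start. The median distance was 755 kb, 5147 lay more than 1000 kb away, and the farthest, chr14:91180944-91181397 in the Pcdh20-Pcdh9 desert, lay 2704 kb away and was called in 1 library only (percentile 23.5). Of the 2 desert regions nearest to the limit of 500 kb, chr5:84917383-84918387, 500.024 kb from the Eph receptor gene Epha5, was called in all 8 limb libraries with percentiles of 69.5 to 90.5. The other, chr14:102482392-102482591, 500.046 kb from Kctd12, was called in 1 FB library (15.7). Just short of the limit, and so not desert regions, chr16:62286568-62286767 was called in 1 FB library (6.66) and chr9:17791869-17792167 in 3 FB libraries (23.8 to 36.5).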

How the data were processed

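ATAC-seq libraries of 13 samples were deposited as peak files. According to the methods, the authors trimmed adapters with cutadapt, mapped with Bowtie2 (wt to mm10, 542 to the mutant genome), removed mitochondrial, discordant and low-quality pairs and PCR duplicates (Picard), turned reads into single ends with bedtools and called peaks with MACS2 in each library, without a control. The deposited values are the fold over local background (a ratio), the −log10 of the p-value and of the q-value, and the MACS2 score, which was not used. Repeated calls of 1 interval, differing in the summit alone, were reduced to the strongest summit. Regions of the 12 libraries were merged at 1 bp of overlap, and the earlier library was left out of the groups. Distances run from the region to the nearest protein-coding transcript start (GENCODE M21). GRCm38, the build of mm10, gave sequences. Per-library values were compared by two-sided exact permutation tests over libraries, within tissue for genotype. The p-values were adjusted over 8 tests (Benjamini-Hochberg), with a threshold of 0.05. Tag totals were estimated from fold and −log10 p with Poisson probabilities (scipy 1.17.1). The scripts were tested on simulated data. The named regions are the 3 strongest of each pattern by mean fold percentile, and the named genes the 2 with most regions in each list. The named deserts are the 3 with most regions and the 3 densest of those given a density. Alternatives were list length, q-value, distance, annotation, percentile measure, replicate block, single genotypes or tissues and left-out libraries. Desert regions and gene lists were chosen with earlier results of these data known. One result that names a withheld item is not reported here.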

Additional observations from a re-analysis of the deposited data

Results flagged for a closer look

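The earlier wt DFL library, which was in no group and entered only an alternative, held 4931 desert regions among 122493 called regions (4.03%), with a median fold percentile of 41.8. This share was lower than in any of the 12 libraries. Of these desert regions, 566 (11.5%) were called in none of the 12 libraries, and were noted because they are a signal in data outside the main measurement. Their median fold percentile was 15.8, against 46.6 for the other desert regions of that library. The earlier library is a single one, so this difference was not tested. The share of all its 122493 regions called in none of the 12 was not computed, so the 11.5% cannot be set against it. Its list was longer than any of the 12 (at most 109961 regions). Its estimated tag total was also higher (78.0 against at most 70.7, in the units given above). The part of list length or depth in its lower desert share and in the 566 regions was not tested.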

How the results depend on the processing

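The higher desert share in FB than in limb kept its direction and passed the test in all alternatives (0.628 to 2.41 points, the lowest beyond 1000 kb and the highest beyond 250 kb) except within a single genotype (2.15 points in wt, 1.14 in 542), and it held when any 1 library was left out (1.46 to 1.84). The other results were less stable, and the causes were not tested. The counts of desert regions in the alternatives stand without the same counts over all regions, which were not made. With the 50000 strongest regions per library, DFL minus PFL was 0.431 for the share, and the percentile differences were -0.0644 (FB minus limb), -1.29 (DFL minus PFL), 0.233 (542 minus wt, reversed) and -0.661 (desert minus distal), while FB-only, limb-only, DFL-only and all-12 regions numbered 985, 288, 210 and 187. With the 20000 strongest, the share differences were 0.219 (DFL minus PFL) and 0.377 (542 minus wt, now past the test), the percentile differences 0.0520 (FB minus limb, reversed), -1.20 (DFL minus PFL), 0.541 (542 minus wt, reversed) and 1.02 (desert minus distal, reversed), the agreement difference -3.33 (-3.14 with 50000), and the FB-only, limb-only, DFL-only, PFL-only, all-12 and wt-only counts 265, 59, 48, 43, 42 and 1. With a −log10 q of at least 10, the percentile differences were 0.232 (FB minus limb, reversed) and -0.0939 (DFL minus PFL), and the first 5 counts 1128, 246, 211, 130 and 175.

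Beyond 250 kb the percentile differences were -1.66 (FB minus limb) and -1.64 (DFL minus PFL), the 5 counts 4000, 1639, 768, 576 and 1356, and 542-only regions numbered 1. Beyond 1000 kb the DFL minus PFL share was 0.241, the percentile differences -2.14 and -3.36, the 5 counts 538, 131, 75, 62 and 73, and wt-only regions numbered 0. The DFL minus PFL percentile difference lost the test outside gene bodies (-1.53), with every transcript of coding genes (-1.20), with the percentile of −log10 q (-2.23) and with the earlier library included (-1.49, share 0.594). Within wt the DFL minus PFL share was 0.736 and the percentile differences were -2.98 (FB minus limb) and -1.53 (DFL minus PFL), and within 542 they were 0.985, -1.97 and -2.14. Within FB, 542 minus wt was -0.491 for the share and 0.638 for the percentile, both reversed. Of 2 alternatives chosen after seeing the data, regions called in both replicates of at least 1 group gave -0.675 (DFL minus PFL) and 1.12 (542 minus wt, reversed) for the percentile, and windows not mostly repeat-masked gave -1.84 (FB minus limb) and -1.68 (DFL minus PFL).

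Leaving out 1 library gave ranges of 0.637 to 1.01 (DFL minus PFL) and 0.0677 to 0.300 (542 minus wt) for the share, -2.88 to -2.21 (FB minus limb), -2.27 to -1.20 (DFL minus PFL), -0.562 to 0.490 (542 minus wt, positive in 6 of 12) and -5.13 to -4.66 (desert minus distal) for the percentile, and -7.59 to -6.28 for the agreement, where 5 groups cannot pass the test. The counts ranged over 1833 to 2182, 579 to 614, 335 to 435, 232 to 325, 419 to 452, 3 to 4 (wt-only) and 0 to 1 (542-only). The labels do not say whether equal replicate numbers share embryos. Over the 15 pairs of groups, the correlation of call differences between replicates, region by region, lay between -0.0108 and 0.0138. Shared embryos need not show in such calls, so these values cannot decide it. With a replicate block, DFL minus PFL was 0.861 for the share and -1.84 for the percentile, each with the smallest exact permutation p of 0.0556. Desert regions had a median of 21 to 31 tags under the summit per library, and the effect of depth on their calls was not tested.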
